A study of Mus musculus with 6 samples.

Results

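The genes described here move cholesterol across the membranes of intestinal epithelial cells. They were chosen by symbol: Npc1l1, Abcg5, Abcg8, Soat2, Abca1 and Scarb1, of which 5 had a probe set with exactly 1 gene symbol among the 19938 genes measured. Soat2, which esterifies cholesterol inside the enterocyte, was not analysed here. RNA of whole ileum, the stretch of small intestine before the colon, was hybridised to Affymetrix mouse arrays, with 1 array for each of 6 mice. In the 3 mice labelled Gata6 KO, floxed Gata6 alleles were combined with Villin-CreERT2, a Cre recombinase that the Villin promoter drives in intestinal epithelium and that tamoxifen activates. The 3 control mice carried Villin-CreERT2 alone. Both groups were fed chow, received tamoxifen (100 mg/ml) on 5 days from 6 to 8 weeks of age and were examined 28 days later, at 10 to 12 weeks. The whole ileal segment was used, so RNA of muscle and stroma, in which Villin does not drive Cre, is part of every sample.

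Dietary and biliary cholesterol enters the enterocyte from the gut lumen through Npc1l1, the brush border protein that the drug ezetimibe blocks. Abcg5 and Abcg8 are partner proteins that form a single pump in the same membrane, which returns cholesterol and plant sterols to the lumen. Cholesterol that stays in the cell is esterified and packed into chylomicrons, or leaves through the basal side by way of Abca1, which loads it onto apolipoprotein A-I. Scarb1, the receptor for high density lipoprotein, exchanges cholesterol with lipoproteins in many tissues. Oxidised sterols activate the liver X receptors, which raise Abca1, Abcg5 and Abcg8, while low sterol activates Srebf2, which raises sterol synthesis and, in human cells, NPC1L1.

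Abcg5 and Abcg8 lie head to head on mouse chromosome 17 and share their upstream DNA. The start sites in the RefSeq promoter table (GRCm38.p6) lie 110 bases apart, and the windows of the 2 genes, each from 250 bases before to 50 bases after the start, overlap by 209 bases. In human cells, GATA factors and HNF4A have been reported to activate this shared promoter. The window of Abcg8 holds both start sites and is shown with the windows of Npc1l1 and Abca1, because the first 2 belong to genes that fell and the last to one that did not pass. Capitals mark GATA motifs, searched on both strands in 4 spellings: AGATAA is the first spelling, AGATAG differs from it in the last base, TGATAA differs from it in the first base, and TGATAG differs from it in both. Each window is given 5′ to 3′ on its gene's strand. They are chr17:84682871-84683170, plus strand, for Abcg8, chr11:6230196-6230495, minus strand, for Npc1l1 and chr4:53159846-53160145, minus strand, for Abca1.
Abcg8, shared with Abcg5: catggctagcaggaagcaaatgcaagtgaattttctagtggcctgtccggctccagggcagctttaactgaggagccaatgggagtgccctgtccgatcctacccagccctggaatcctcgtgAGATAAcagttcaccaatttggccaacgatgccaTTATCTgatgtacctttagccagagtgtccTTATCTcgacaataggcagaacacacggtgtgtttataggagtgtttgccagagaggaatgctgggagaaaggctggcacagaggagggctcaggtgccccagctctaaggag
Npc1l1: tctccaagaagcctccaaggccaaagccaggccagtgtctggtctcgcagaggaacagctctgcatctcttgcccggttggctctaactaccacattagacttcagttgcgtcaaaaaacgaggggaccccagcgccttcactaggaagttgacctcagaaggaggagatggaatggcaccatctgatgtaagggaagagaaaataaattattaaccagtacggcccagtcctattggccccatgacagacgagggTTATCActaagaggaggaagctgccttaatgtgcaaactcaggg
Abca1: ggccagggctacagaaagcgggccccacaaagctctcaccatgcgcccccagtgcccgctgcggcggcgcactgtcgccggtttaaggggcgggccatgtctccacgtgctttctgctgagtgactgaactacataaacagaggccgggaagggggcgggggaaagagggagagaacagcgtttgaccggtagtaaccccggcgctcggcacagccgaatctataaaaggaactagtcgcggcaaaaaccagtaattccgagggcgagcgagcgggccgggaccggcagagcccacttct
The shared window held 3 GATA matches, all AGATAA, and all 3 lay in the overlap of the Abcg5 and Abcg8 windows. Their first bases were 127, 93 and 63 bases before the start of Abcg8. The window of Npc1l1 held 1 match, TGATAA on the opposite strand, 6 bases after the start. The window of Abca1 held 0. The promoter of Scarb1, which also did not pass, was not analysed here. The share of G and C was 62.7% in the Abca1 window, against 52.3% in that of Abcg8 and 51% in that of Npc1l1. Of all 32851 windows in the table, 29.8% held at least 1 GATA match and 1.76% held 3 or more. Of the other motifs searched on both strands, AGGTCA, a hexamer bound by many nuclear receptors, was found once in the Npc1l1 window and in 16.3% of all windows. GTTAAT, part of the HNF1 motif, was also found once in the Npc1l1 window, against 7.10% of all windows. The liver X receptor motif was searched only as an exact direct repeat of AGGTCA with 4 bases between the copies. This form had no match in these windows and one in 0.0152% of all windows. Repeats with any other base in a copy were not searched, so these windows may hold liver X receptor sites of another spelling. None of these motifs overlapped another within a window. A second RefSeq start of Abcg8, in the window chr17:84676052-84676351, had 0 GATA matches. A match describes letters in a window and not a bound site. The motifs were chosen after the sequences were seen, and a link between matches and calls was not tested.

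**Figure D1:**
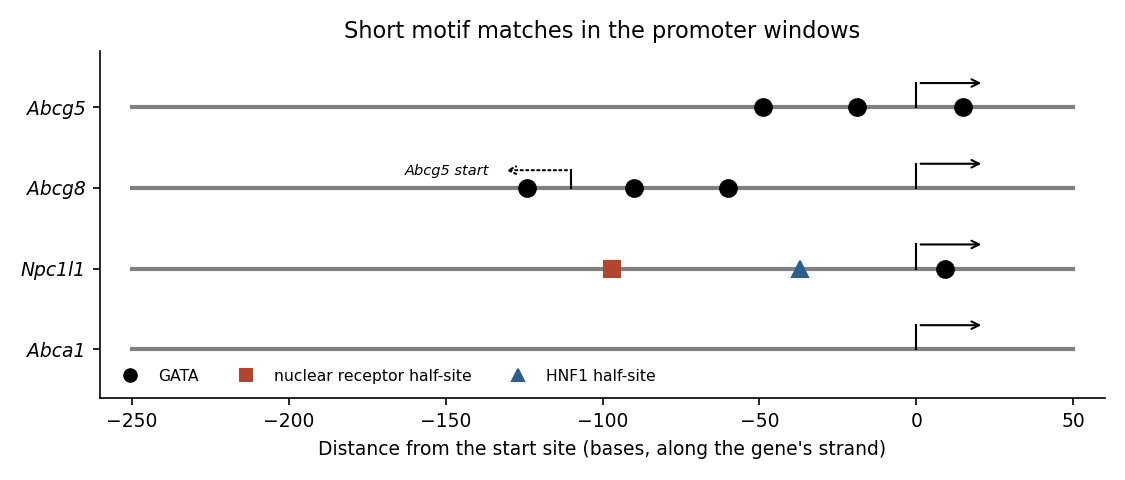
Motif matches in the promoter windows of 4 genes, drawn by distance from the start site in bases along each gene's strand. Circles are GATA matches, the square is AGGTCA, the triangle is GTTAAT and arrows mark starts. The same 3 GATA matches appear in the rows of Abcg5 and Abcg8, 1 lies in that of Npc1l1 and 0 in that of Abca1.

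The targeted gene was checked first. Gata6 had a log2 signal of 6.93, 6.81 and 6.86 in the arrays labelled Gata6 KO, against 6.31, 6.33 and 6.50 in the controls. It was thus higher, by a log2 fold change of 0.49 (SE 0.08, n = 3 per group, limma adjusted p = 0.0162), and does not bear the label out, so every direction here is that of the arrays labelled Gata6 KO. The call was lost without control replicate 1 (0.0501) or Gata6 KO replicates 1, 2 or 3 (0.0584, 0.0573 and 0.0623). Whether its probe set covers the floxed exons was not analysed here. Median log2 signals ran from 3.33 to 3.38 on the KO-labelled arrays and from 3.41 to 3.44 on the control arrays. Control replicate 3 read 2.31 for Xist and 5.30 for the Y-linked gene Eif2s3y, the signals of a male, against 7.39 to 7.81 and 0.27 to 0.61 on the other arrays, the signals of females. Control replicate 1 read 10.96 for the colon gene Car1, against 12.14 to 12.20 in the KO-labelled arrays and 5.68 and 6.87 in the other controls. The markers of ileal enterocytes (Fabp6, Slc10a2, Fgf15, Cubn, Slc51a and Slc51b) had a mean log2 signal of 6.87 to 7.62 in KO-labelled and 8.20 to 8.92 in control arrays. Of the 6, 4 fell, where 3.25% of all genes did. Slc10a2 (log2 fold change -0.16, SE 0.14) and Fgf15 did not pass, with limma adjusted p of 0.511 and 0.149. Fgf15 read 3.88, 3.78 and 4.37 in the KO-labelled arrays and 4.09 in control replicate 1, against 6.975 and 7.053 in control replicates 2 and 3. Whether it is detected at such low values was not tested.

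The question of the comparison was which steps of cholesterol uptake and efflux differed in ileum 28 days after tamoxifen. Npc1l1, Abcg5 and Abcg8 were each lower more than 4-fold in the arrays labelled Gata6 KO, while neither Abca1 nor Scarb1 passed the test. Of the 5 measured genes, 3 thus fell and 0 rose at a limma adjusted p under 0.05. Over all 19938 genes the shares were 3.25% lower and 4.99% higher, 8.24% in either direction. The groups did not overlap in 3 of the 5 genes, all lower, against 12.6% of all genes lower, 16.8% higher and 29.3% in either direction. At an unadjusted p under 0.05 the same 3 passed, and 24.7% of all genes did. Of all genes, 55 (0.276%) fell at least 4-fold and passed the test, and these 3 are among them. In whole ileum, fewer cells of a type and less RNA per cell cannot be told apart.

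Npc1l1 (probe set 10384102, chr11:6211011-6230245) is the uptake protein. Its log2 signal was 6.63, 6.65 and 7.03 in the KO-labelled arrays, against 8.61, 8.95 and 9.11 in the controls. All 3 KO-labelled arrays lay below all 3 controls, with a gap of 1.58 between the nearest arrays of the groups. The means were 6.77 ± 0.22 in KO-labelled and 8.89 ± 0.26 in control arrays (SD, n = 3). The log2 fold change was -2.12 (SE 0.16, 95% interval -2.50 to -1.74, limma adjusted p = 9.05e-04), 4.35-fold lower. As a level on the linear scale, the KO-labelled arrays had 23.0% of the control signal, with an interval of 17.7% to 29.9%.

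Abcg5 (probe set 10453318, chr17:84658174-84683011) makes the first protein of the apical efflux pump. It read 5.38, 5.45 and 6.17 in the KO-labelled arrays, against 7.86, 7.98 and 8.01 in the controls. The groups were 1.68 apart at their nearest arrays, and KO replicate 3 stood above its group. The log2 fold change was -2.28 (SE 0.20, 95% interval -2.76 to -1.81, limma adjusted p = 0.00144), 4.87-fold lower. Abcg8 (probe set 10447239, chr17:84676302-84700333) makes its partner. Its log2 signal was 4.99, 5.11 and 5.70 in the KO-labelled arrays, against 7.46, 7.41 and 7.68 in the controls. Here too KO replicate 3 was the highest of its group, and the gap between the groups was 1.71. The log2 fold change was -2.25 (SE 0.19, 95% interval -2.69 to -1.81, limma adjusted p = 0.00117), 4.77-fold lower.

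**Figure D2:**
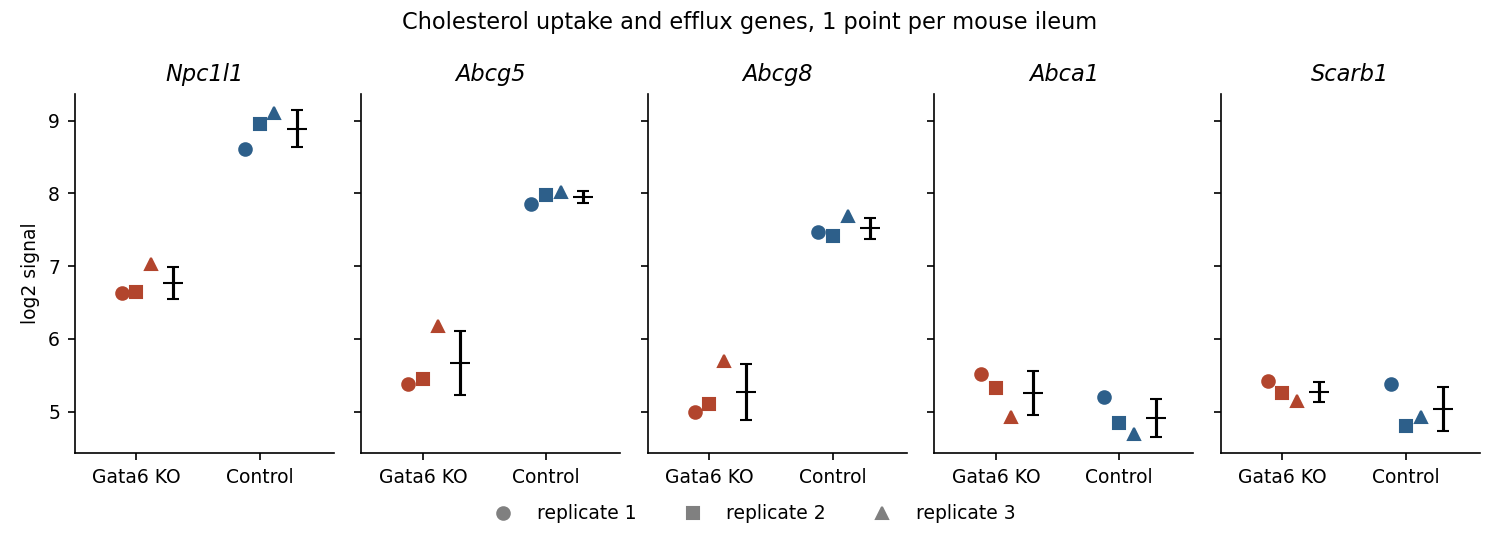
Log2 signal of the 5 genes, with 1 point per mouse ileum, arrays labelled Gata6 KO on the left of each panel and controls on the right. Symbols mark the replicate number and bars the mean and SD of 3 arrays. Npc1l1, Abcg5 and Abcg8 have groups 1.58 to 1.71 apart, and the groups of Abca1 and Scarb1 overlap.

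The decreases of the pump's 2 genes were of like size. The difference of Abcg5 minus Abcg8 within an array was 0.39, 0.35 and 0.47 in the KO-labelled arrays, against 0.40, 0.57 and 0.33 in the controls. The group means of this difference were 0.40 ± 0.07 in KO-labelled and 0.43 ± 0.12 in control arrays (SD, n = 3), and a two-sided exact permutation test gave p = 0.8. With 3 arrays against 3 that test cannot go below 0.1. Abcg5 minus Npc1l1 differed by -0.16 and Abcg8 minus Npc1l1 by -0.13 between the groups, KO-labelled minus control, with exact permutation p = 0.4 and 0.6. The 3 ratios were one family, and adjustment cannot bring these values under the threshold.

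Abca1 (probe set 10512949, chr4:53030789-53159988), which serves efflux across the basal side, read 5.51, 5.32 and 4.93 in the KO-labelled arrays, against 5.20, 4.84 and 4.70 in the controls. The groups overlapped, and KO replicate 3 was here the lowest of its group. The log2 fold change was 0.35 (SE 0.18, 95% interval -0.08 to 0.77, unadjusted p = 0.0965, limma adjusted p = 0.290). That interval runs from 94.6% to 171% of the control level. Scarb1 (probe set 10533929, chr5:125277087-125341094), the receptor for high density lipoprotein, read 5.42, 5.25 and 5.15 in the KO-labelled arrays, against 5.37, 4.79 and 4.93 in the controls. Control replicate 1 lay among the KO-labelled values and the other controls below them. The log2 fold change was 0.24 (SE 0.16, 95% interval -0.13 to 0.61, unadjusted p = 0.166, limma adjusted p = 0.390), or 91.5% to 153% of the control level. Neither interval reaches the decrease of Npc1l1, Abcg5 or Abcg8.

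**Figure D3:**
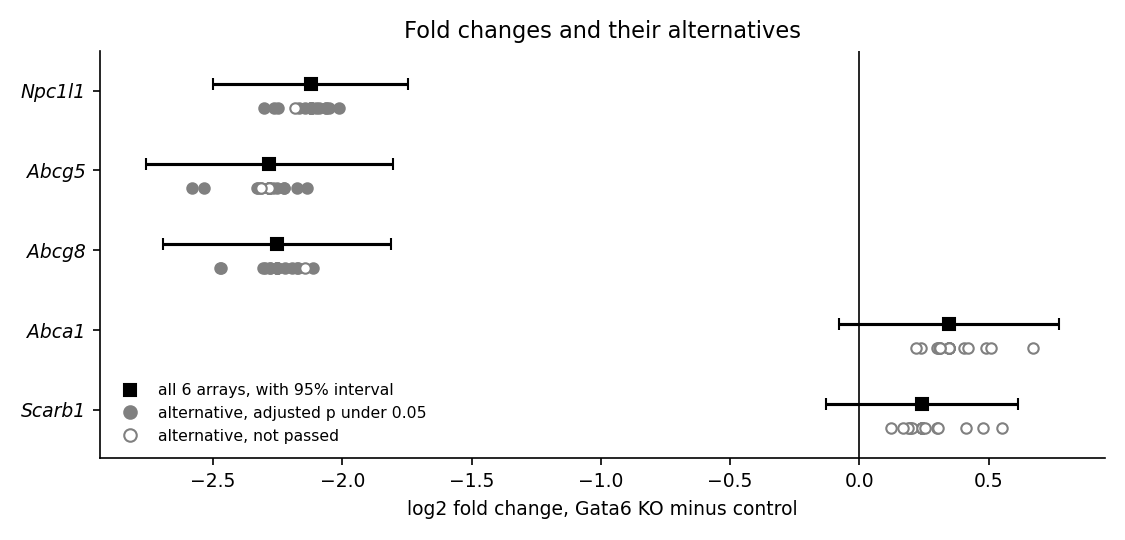
Log2 fold changes of the 5 genes, arrays labelled Gata6 KO minus controls. Squares show the fit on all 6 arrays with its 95% interval, and circles the 18 alternative settings, filled where the adjusted p was under 0.05. The squares of Npc1l1, Abcg5 and Abcg8 lie between -2.28 and -2.12, and those of Abca1 and Scarb1 at 0.35 and 0.24 with intervals across 0.

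The 3 decreases held when any 1 array was left out. The highest limma adjusted p in those 6 fits was 0.0105 for Npc1l1, 0.0132 for Abcg5 and 0.0117 for Abcg8. Without the male control replicate 3 the log2 fold changes were -2.01, -2.25 and -2.17 for the same 3 genes. Each lost its call without control replicates 1 and 3 together, where 1 control array is left and is assumed to vary like the others (adjusted p = 0.0761, 0.116 and 0.110). Abcg5 also lost it without moderation of the variances (0.0545).

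The level of epithelial markers overlapped between the groups. The mean log2 signal of the 8 epithelial markers Vil1, Epcam, Cdh1, Krt8, Krt18, Krt19, Cldn7 and Elf3 was 9.74 to 9.86 in KO-labelled and 9.68 to 9.82 in control arrays. Of these, Krt19 rose by 0.33 (SE 0.07) and Vil1, the villin gene itself, fell by 0.41 (SE 0.08). With each array centred on this list, the log2 fold changes were -2.17 for Npc1l1, -2.33 for Abcg5 and -2.30 for Abcg8, and all 3 passed. Markers of colon (Car1, Aqp8, Hoxb13, Cyp2c55 and Muc4) averaged 6.85 to 7.83 in KO-labelled and 4.14 to 6.34 in control arrays, with 2 of 5 higher and Hoxb13 below the array median throughout. Fibroblast markers averaged 8.15 to 8.47 in KO-labelled and 7.68 to 8.13 in control arrays, with 0 of 6 passing. Smooth muscle markers averaged 7.98 to 8.38 in KO-labelled and 7.80 to 7.99 in control arrays, with 1 of 8 higher. The part of these other tissues in the results was not tested. In the fit with the smooth muscle mean as a covariate, the log2 fold changes were -2.30 for Npc1l1, -2.58 for Abcg5 and -2.47 for Abcg8 (limma adjusted p = 0.0361 to 0.0395).

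Macrophages and fibroblasts also express Abca1. The mean of 8 macrophage markers was 6.45, 6.30 and 5.78 in the KO-labelled arrays, against 5.93, 5.90 and 5.35 in the controls, with 1 of 8, Cd14, higher. Within each group the arrays had the same order for this mean as for Abca1. The part of macrophages in the level of Abca1 was not tested. Lymphocyte markers averaged 4.29 to 4.61 in KO-labelled and 4.42 to 4.47 in control arrays, with 0 of 7 passing. Endothelial markers differed by 0.04 between the group means, with 0 of 6 passing. Enteric neuron and glia markers lay at 3.40 to 3.46 in KO-labelled and 3.21 to 3.42 in control arrays, and adipocyte markers at 4.75 to 4.89 in KO-labelled and 3.71 to 4.85 in control arrays. Liver and pancreas markers lay at 2.64 to 3.11 in KO-labelled and 2.71 to 2.83 in control arrays, with Ahsg, Fgb, Cpa1 and Ctrb1 below the array median throughout.

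The 3 genes that fell also shared their order within the KO-labelled group. Replicate 3 was the highest of that group for all 3. Among the 648 genes that fell, replicate 3 was the highest KO-labelled array for 306 (47.2%), and among all genes tested for 32.1%. Among the 196 genes that fell by at least 1 on the log2 scale, it was the highest for 108 (55.1%). The ileal enterocyte markers were also highest there among KO-labelled arrays, at 7.62, with 6.87 as the lowest, in replicate 1. What sets replicate 3 apart was not tested.

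To find the genes with the most similar pattern, each gene was centred on its mean over the 6 arrays, and the root mean square difference to each gene of interest was taken. Of all named genes, Abcg8 was nearest to Abcg5 and Abcg5 nearest to Abcg8, at 0.0826 on the log2 scale. Enpep, the brush border aminopeptidase A, came second for both, at 0.0989 from Abcg5 and 0.117 from Abcg8. Enpep read 8.24, 8.31 and 8.91 in the KO-labelled arrays, against 10.52, 10.65 and 10.61 in the controls. Aspa, which splits N-acetylaspartate, followed for Abcg5 (0.146), and Spink1, a trypsin inhibitor, for Abcg8 (0.150). Nearest to Npc1l1 were Khk, the fructose kinase (0.0665), Slc25a15, the mitochondrial ornithine carrier (0.142), and Spink1 (0.144). Abcg8 and Abcg5 had ranks 5 and 11 in that order, at 0.164 and 0.181 from Npc1l1. All 5 of these other genes fell, by 2.01 to 2.26 on the log2 scale. The distance includes the difference between the groups, so a near gene must have a like fold change. The fold changes of near genes, also of those below, thus follow from the selection and are no separate result. For Abca1 the nearest were Pltp, the phospholipid transfer protein (0.0383), Phgdh, which starts serine synthesis (0.0417), and Fxyd5, a regulator of the sodium pump (0.0531). For Scarb1 they were Lrrc31 (0.0576), the protease gene Ctsk (0.0608) and the secretory kinase gene Fam20c (0.0632). These 6 genes did not pass between the groups, with limma adjusted p of 0.208 to 0.610, except that Fam20c passed without control replicate 1 (0.0474). Pltp, Phgdh and Fxyd5 had log2 fold changes of 0.42, 0.36 and 0.40, beside 0.35 for Abca1.

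**Figure D4:**
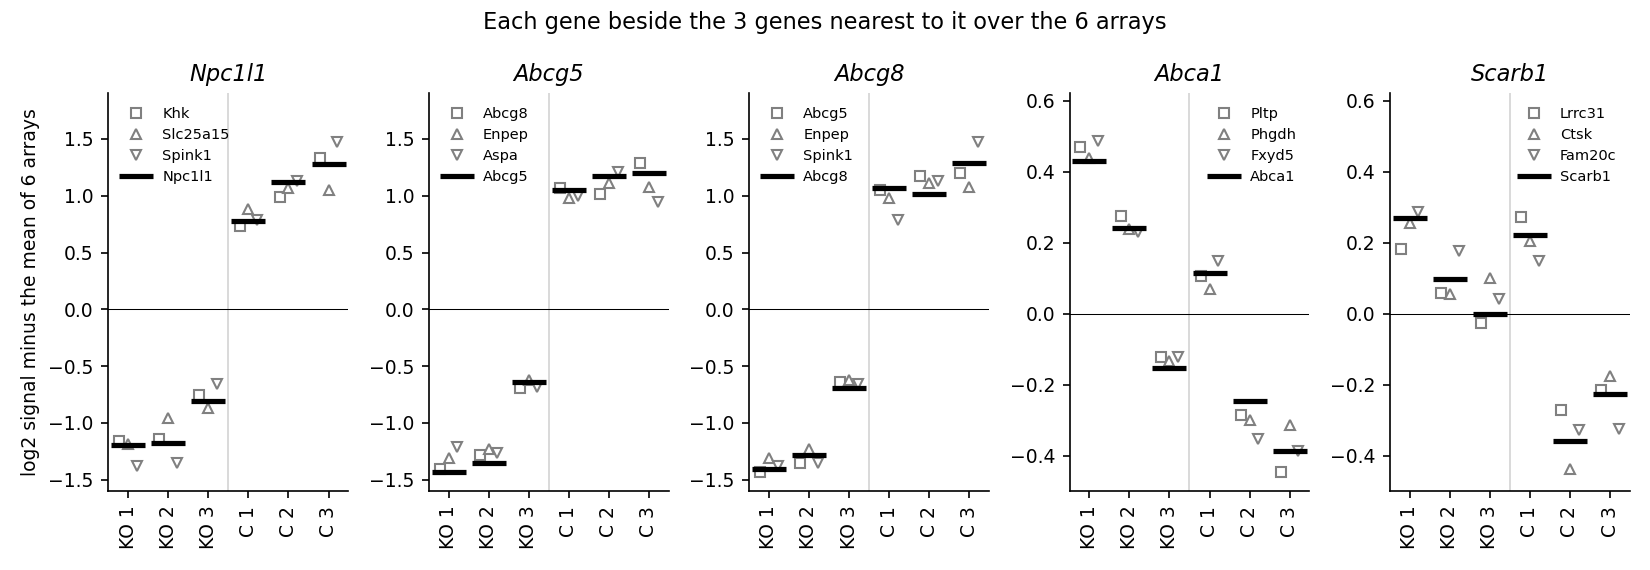
Log2 signal minus the mean of the 6 arrays, for each of the 5 genes (black bars) and the 3 genes nearest to it (open symbols), with KO-labelled arrays left of the grey line and controls right of it. For Npc1l1, Abcg5 and Abcg8 all KO-labelled arrays lie below 0 and KO replicate 3 highest among them. The scale is narrower for Abca1 and Scarb1.

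The wider pathway was described with 8 lists, of which 92 of 104 genes were measured. Their counts stand against 4.99% of all genes higher and 3.25% lower. Of the 8 genes of apolipoproteins and chylomicron assembly, which carry cholesterol out after uptake, 5 fell in the KO-labelled arrays, 0 rose and 3 did not pass. Their median log2 fold change was -1.65, against 0.00 over all genes. Mttp, which loads lipid onto apolipoprotein B, read 5.04, 5.14 and 5.70 in the KO-labelled arrays, against 9.37, 9.43 and 9.62 in the controls. Apoa1, the acceptor of cholesterol from Abca1, had 6.12, 7.12 and 7.81 in the KO-labelled arrays, against 10.33, 11.09 and 10.96 in the controls. Apoc3, an inhibitor of lipolysis, fell by 2.09 (SE 0.31) and Apob, the structural protein of chylomicrons, by 1.22 (SE 0.19). The fifth was Apoa4, which fell by 2.96 (SE 0.46) and was named after its value was seen. Limma adjusted p of the 5 ran from 1.57e-04 to 0.0114. Apob lost its call without control replicate 3 (0.0554), Gata6 KO replicate 1 (0.0542) or 2 (0.0600). Apoc3 lost it without Gata6 KO replicate 2 (0.0539), and Apoa4 without Gata6 KO replicates 1 (0.0554) or 2 (0.0592).

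Among 17 enzymes of cholesterol synthesis 7 fell, 0 rose and 10 did not pass. Their median log2 fold change was -0.48. Tm7sf2, a sterol reductase, fell by 0.66 (SE 0.09) and the lanosterol demethylase Cyp51 by 0.73 (SE 0.11). Msmo1, the next demethylating enzyme, fell by 0.83 (SE 0.13), and Sqle, which makes squalene epoxide, also by 0.83 (SE 0.14). The groups did not overlap in 12 of the 17, all lower in KO-labelled arrays, where 12.6% of all genes were so. Limma adjusted p of the 4 named enzymes ran from 0.00607 to 0.0144. Msmo1 did not pass when control replicate 3 (0.0541) or Gata6 KO replicate 1 (0.0523) was left out. Sqle lost it without control replicate 3 (0.0659) or Gata6 KO replicates 1 (0.0534), 2 (0.0713) or 3 (0.0520). Leaving out 1 array gave 2 to 9 lower enzymes.

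Of 7 genes of cholesterol esters and lysosomes, 1 rose, 0 fell and 6 did not pass. Nceh1, which hydrolyses cholesterol esters, rose by 1.26 (SE 0.20, limma adjusted p = 0.0116). The groups did not overlap in 4 of the 7, 1 lower and 3 higher, against 12.6% and 16.8% of all genes. Nceh1 did not pass when control replicate 3 (0.0523) or Gata6 KO replicate 2 (0.0590) was left out. Of 20 carriers of sterol within the cell and proteins that sort Npc1l1, 3 rose, 2 fell and 15 did not pass. The cytosolic sterol carrier Stard5 read 7.13, 7.87 and 7.45 in the KO-labelled arrays, against 6.34, 6.03 and 5.75 in the controls, and rose by 1.44 (SE 0.21, limma adjusted p = 0.00932). Osbpl2, an oxysterol binding protein, rose by 0.43 (SE 0.08), and Cav1, the caveolin gene, named after its value was seen, by 0.45 (SE 0.09). Gramd1b, which moves cholesterol from the plasma membrane to the endoplasmic reticulum, fell by 0.52 (SE 0.09). Fabp2, the intestinal fatty acid binding protein, fell by 1.76 (SE 0.32). The limma adjusted p of these last 4 ran from 0.0193 to 0.0307, and none held in all fits that leave out 1 array. Osbpl2 was lost without control replicates 1, 2 or 3 (0.0679, 0.0551 and 0.0745) or Gata6 KO replicates 2 or 3 (0.0857 and 0.0774), and Cav1 without the same arrays (0.0605, 0.0690, 0.0971, 0.122 and 0.107). Relative to the epithelial markers Osbpl2 and Cav1 did not pass (0.0524 and 0.0559). Gramd1b was lost without control replicate 3 (0.0725) or Gata6 KO replicates 1, 2 or 3 (0.0671, 0.0828 and 0.0700). Fabp2 was lost without control replicates 2 or 3 (0.0577 and 0.0879) or Gata6 KO replicates 1 or 2 (0.0690 and 0.0912).

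The liver X receptors and their targets did not move together. Of 10 measured, 3 rose, 2 fell and 5 did not pass. Nr1h3, the gene of liver X receptor alpha, read 5.17, 4.71 and 5.19 in the KO-labelled arrays, against 5.77, 6.05 and 5.91 in the controls, and fell by 0.89 (SE 0.15, limma adjusted p = 0.0146). Lpcat3, a phospholipid acyltransferase that the receptor activates, fell by 0.74 (SE 0.07, limma adjusted p = 0.00167). Mylip, the ligase that degrades the receptor for low density lipoprotein, rose by 0.41 (SE 0.08, limma adjusted p = 0.0275), and Apoe, an acceptor of cellular cholesterol, by 0.47 (SE 0.11, limma adjusted p = 0.0424). The third was Smpdl3a, a phosphodiesterase, at 0.52 (SE 0.12, limma adjusted p = 0.0444), named after its value was seen. Relative to the epithelial markers Mylip, Apoe and Smpdl3a did not pass (0.0745, 0.0879 and 0.0524). Nr1h3 was lost without control replicate 3 (0.0643). Mylip was lost without control replicates 1 or 3 (0.0771 and 0.0919) or Gata6 KO replicates 1, 2 or 3 (0.0782, 0.110 and 0.0685). Apoe was lost without control replicates 1, 2 or 3 (0.116, 0.0711 and 0.129) or Gata6 KO replicates 1 or 2 (0.118 and 0.154). Smpdl3a was lost without control replicates 1 or 2 (0.122 and 0.0883) or Gata6 KO replicates 1, 2 or 3 (0.131, 0.117 and 0.111).

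Of 17 regulators of sterol genes, 1 rose, 2 fell and 14 did not pass, where 4.99% of all genes rose and 3.25% fell. Pparg, a nuclear receptor of lipid metabolism that is abundant in colon epithelium, read 7.47, 7.82 and 7.64 in the KO-labelled arrays, against 6.04, 5.57 and 5.36 in the controls. It rose by 1.99 (SE 0.18, limma adjusted p = 0.00144) and passed without any 1 array. Pparg lost the call without moderation of the variances (adjusted p = 0.0539) and with the smooth muscle covariate (limma adjusted p = 0.0767). Hnf4g, a hepatocyte nuclear factor of enterocytes, fell by 0.54 (SE 0.12, limma adjusted p = 0.0369), a call lost whichever of the 6 arrays was left out (0.0522 to 0.126). Insig1, which holds the sterol sensor in the endoplasmic reticulum, fell by 0.99 (SE 0.24, limma adjusted p = 0.0477). Insig1 was lost without control replicate 3 (0.126) or Gata6 KO replicates 1, 2 or 3 (0.147, 0.145 and 0.121). Of 7 lipoprotein receptors and their regulators Sort1, a sorting receptor, rose by 0.56 (SE 0.08, limma adjusted p = 0.0101), a call lost without Gata6 KO replicate 2 (0.0507), and 6 did not pass. Of 6 enzymes that make or modify oxysterols Sult2b1, a sterol sulfotransferase, fell by 1.44 (SE 0.14, limma adjusted p = 0.00194) and 5 did not pass.

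**Figure D5:**
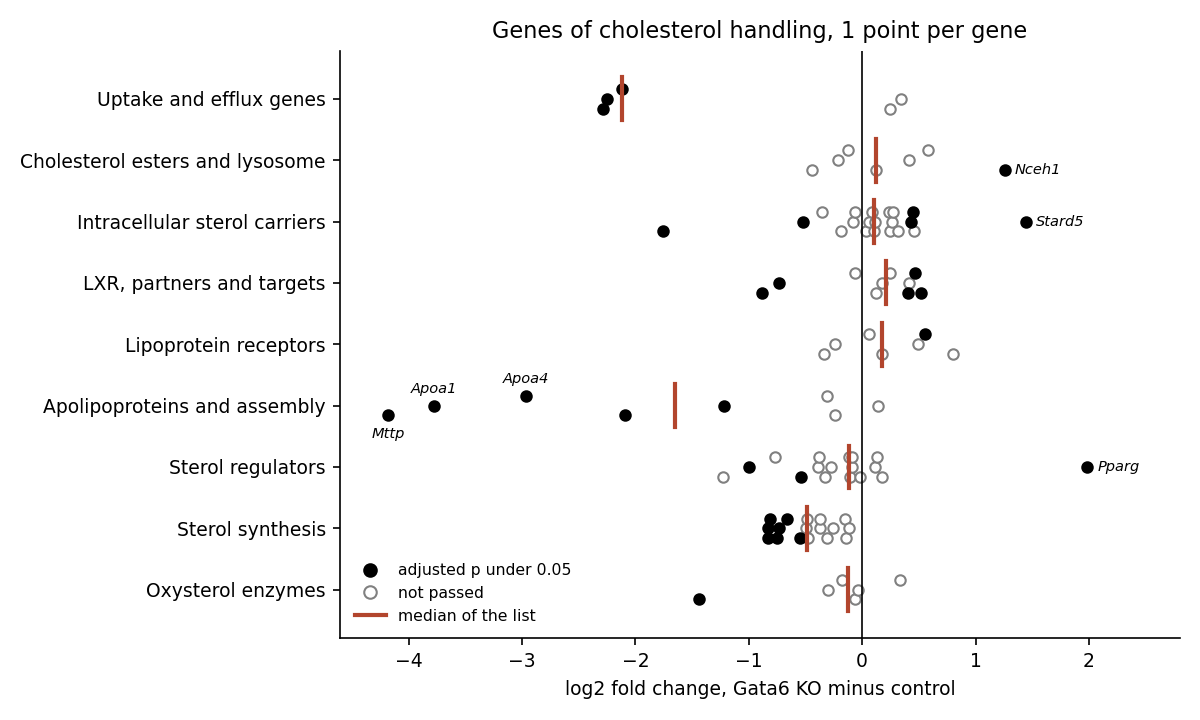
Log2 fold changes, arrays labelled Gata6 KO minus controls, for the uptake and efflux genes and 8 lists of related genes, with 1 point per gene. Filled points passed at an adjusted p under 0.05 and red bars mark the median of each list. The apolipoprotein list has its median at -1.65 and the sterol synthesis list at -0.48, and the other 6 lists lie between -0.12 and 0.21.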

How the data were processed

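Total RNA of whole ileum from 6 mice, 3 per group, was measured on mouse Gene 1.0 ST arrays, per the labels. The values the authors deposited are on a log2 scale, 1 per probe set. Affymetrix Expression Console made them, as the submitters' processing notes record; its version, background correction and normalization are not given in any source used. The base of the logarithm is taken from how far the values extend. Nothing says that the mice were independent of litter or cage, and p-values measure the spread between these mice; the number of arrays limits the precision.

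Of 35557 probe sets, 21789 have 1 gene symbol, 1621 several and 12147 are not listed. The brightest probe set by mean was kept for each of 19938 genes; each of the 5 measured genes of interest has 1. Gene positions are those of the RefSeq table (GRCm38.p6). Genes were tested with limma 3.58.1 (R 4.3.3; lmFit, eBayes, two-sided, Benjamini-Hochberg over all genes, threshold 0.05), and ratios with an exact permutation test (scipy 1.17.1). In 5 simulations of the 19938 genes, 200 genes were changed and the noise was normal, independent between arrays, with each gene's moderated variance. There the fit found 97.9% of changes of 1 and 46.4% of changes of 0.5 on the log2 scale, and 6.31% of calls were false. In the data 8.24% of genes were called and arrays may share effects, so these shares need not hold there. Members and lists were chosen with earlier results of these data known, and motifs after the sequences were seen. From each list at most 4 called genes with the smallest p are named, and for each gene of interest the 3 nearest with a name other than a predicted model. The 18 alternatives covered scaling, dim genes, probe sets, moderation, array weights, the replicate block, a muscle covariate and arrays left out. Figures were drawn with matplotlib 3.10.9.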

Additional observations from a re-analysis of the deposited data

How the results depend on the processing

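Abca1 and Scarb1 did not pass under any of the 18 alternatives, with log2 fold changes of 0.22 to 0.67 and 0.12 to 0.55. Npc1l1, Abcg5 and Abcg8 kept their direction under all 18, at -2.30 to -2.01, -2.58 to -2.14 and -2.47 to -2.11. Leaving out each array in turn gave -2.26 to -2.01, -2.54 to -2.14 and -2.47 to -2.11, with 3 genes lower and 0 higher each time. The calls lost were those without control replicates 1 and 3 together (-2.18 for Npc1l1, -2.31 for Abcg5 and -2.14 for Abcg8, which left 0 lower) and, for Abcg5, without moderation (-2.28); the first leaves fewer samples. Averaging probe sets could not alter the Abcg5 to Abcg8 difference, since each gene has 1. The ratio of Soat2 to Soat1 was not analysed here.

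For arrays with the same replicate number, the correlations of their deviations were 0.04, -0.04 and 0.15 for replicates 1, 2 and 3. Arrays with different numbers had -0.12 to 0.08, so the pair of replicate 3 was the highest. Whether the numbers stand for pairs of mice was not tested. With the replicate number as a block the log2 fold changes were -2.12, -2.28 and -2.25, with all 3 called (limma adjusted p = 0.00164, 0.00307 and 0.00203). Their SEs were 0.099, 0.155 and 0.117 with the block, against 0.161, 0.203 and 0.187 without it. Over all genes 475 were lower and 766 higher. The block also left 1 sterol carrier and 0 liver X receptor genes higher and 0 regulators lower.

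Over all genes the main counts were 648 lower and 995 higher. Centring arrays on their median gave 565 and 1562, and centring on the epithelial markers 741 and 710. Every probe set on its own gave 406 and 491, no moderation 106 and 168, the smooth muscle covariate 57 and 52, and control replicates 1 and 3 left out together 11 and 25. Leaving out each array gave 277 to 597 lower and 320 to 806 higher.

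List counts moved as follows, the cause not tested. For esters and lysosomes (main 1 higher, 0 lower), 3 were higher with median centring, above the median of gene means, with an intensity trend and with array weights, and 0 with no moderation, the muscle covariate or both controls left out. The mean of all probe sets gave 1 lower. For sterol carriers (3 higher, 2 lower), 1 was higher relative to epithelium and with every probe set, and 0 with no moderation, the covariate or both controls left out; 0 were lower under these last 3 and with every probe set. For liver X receptor genes (3 higher, 2 lower), 0 were higher relative to epithelium, with every probe set, no moderation, the covariate or both controls left out; 1 was lower with every probe set or no moderation and 0 with the covariate or both controls left out. For lipoprotein receptors (1 higher, 0 lower), 0 were higher with no moderation, the covariate or both controls left out, and 1 was lower above the median of gene means and with an intensity trend. Apolipoproteins (5 lower) had 1 lower with no moderation, 2 with the covariate and 1 with both controls left out. Regulators (1 higher, 2 lower) had 4 lower with quantile normalization, above the median of gene means and with an intensity trend, 0 with every probe set, no moderation or the covariate and 1 with both controls left out; 0 were higher under the last 3. Sterol synthesis (7 lower) had 11 lower above the median of gene means, 4 with every probe set, and 0 with no moderation, the covariate or both controls left out. Oxysterol enzymes (1 lower) had 0 under those last 3. Leaving out each array gave 0 to 3 and 0 genes for esters (higher, then lower), 1 to 3 and 0 to 2 for carriers, 0 to 1 and 1 to 2 for liver X receptor genes, 0 to 2 and 0 for receptors, 2 to 5 lower apolipoproteins, 1 higher and 0 to 5 lower regulators, 2 to 9 lower synthesis enzymes and 1 lower oxysterol enzyme. Of the 31 other named genes that passed, 13 kept the call without any 1 array, and none of the 37 turned direction.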
